A study of Mus musculus with 39 samples.

Results

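Binding of the glucocorticoid receptor (GR) to chromatin was compared between dexamethasone-treated and untreated 7438 Afos cells, using the 4 deposited lists of GR sites from these cells. The lists were chosen by their labels, 2 for untreated cells and 2 for cells given dexamethasone (Dex), a synthetic ligand of GR. They held 14419 sites, of 110608 sites in the 24 lists of the whole series, some of which were not used in the comparisons below. The study mapped GR and the estrogen receptor (ER) in mouse mammary cells under 4 treatments (none, Dex, estradiol, and both hormones), by chromatin immunoprecipitation of sonicated nuclei followed by sequencing (ChIP-seq). All 4 libraries came from cells that carry GR fused to GFP, ER fused to Cherry, and Afos, under a promoter regulated by tetracycline. Tetracycline represses these genes, and it was withdrawn 24 h before the hormone was added. Treated cells received 100 nM Dex for 30 min, and the other cells received no hormone. In the further lists used for comparison, estradiol, alone or with Dex, was also given at 100 nM for 30 min. A cocktail of GR antibodies was used, so the libraries do not separate the GFP-tagged receptor from any other GR in the cells. A list of sites carries no expression values, so the labelled cell type could not be checked against markers. The labels number the replicates but do not say whether they were separate cultures, so the spread between lists of a group may be technical. The p-values come from relabelling these 4 lists only and do not measure that spread.

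GR is a steroid-activated transcription factor. Without hormone it resides mostly in the cytoplasm, held by chaperones such as Hsp90, and a ligand such as Dex drives it into the nucleus, where it binds glucocorticoid response elements in DNA. AP-1 factors, dimers of Fos and Jun proteins, are known to keep many GR-bound regions of mouse mammary cells accessible. The labels do not explain the name Afos. A-Fos, as described elsewhere, is an engineered dominant negative that pairs with Jun and prevents AP-1 from binding DNA. Both the treated and the untreated cells of the comparison carried it.

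Far more GR sites were called with Dex than without it. The untreated lists held 95 sites (replicate 1) and 315 sites (replicate 2). The Dex lists held 8873 and 5136 sites. The longer untreated list was therefore far shorter than the shorter Dex list, and the groups did not overlap. The means were 205 ± 156 sites without hormone and 7004.5 ± 2642 with Dex (SD, n = 2 lists each), a ratio of 34.2. The ratio depended on which untreated list was used: it was 73.7 without untreated replicate 2 and 22.2 without untreated replicate 1. Called sites covered 45.6 kb and 142.9 kb of the genome in the untreated lists, and 5451 kb and 2975 kb in the Dex lists. The comparison of 2 lists with 2 allows no two-sided exact permutation p smaller than 0.33. The test gave 0.33 for the number of sites and for every median of width, density, score and spacing given below for the full lists. The groups were separate in each of these.

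**Figure D1:**
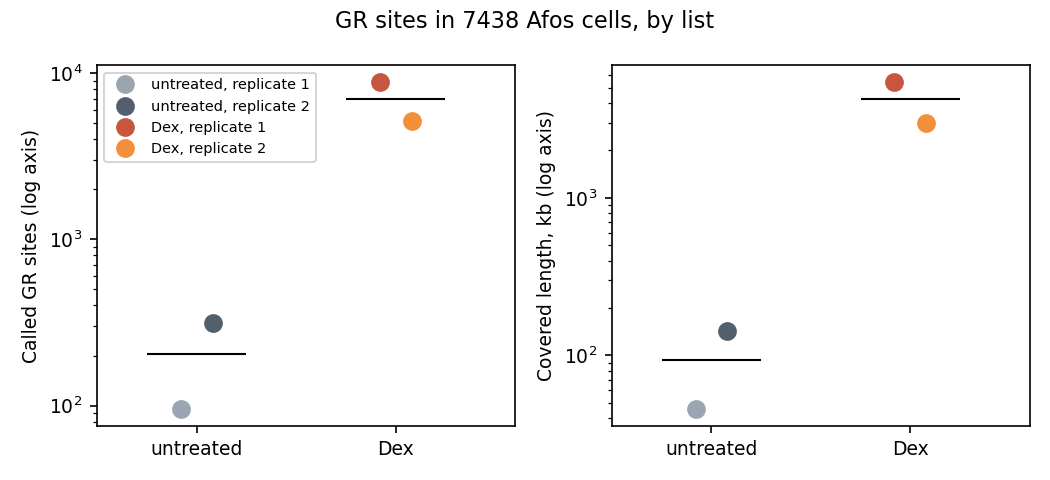
Number of called GR sites (left) and summed length of called sites in kb (right) in each list of 7438 Afos cells, both on log axes. Points are lists and horizontal lines are group means. The untreated lists sit at 95 and 315 sites and the Dex lists at 8873 and 5136 sites.

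Sites called with Dex were wider than sites called without it. Median widths were 462 and 441 bp in the untreated lists and 598 and 570 bp in the Dex lists. The group means of these medians were 451.5 ± 14.8 bp and 584 ± 19.8 bp (SD, n = 2), a difference of 132.5 bp. Sites above 1 kb numbered 1 and 6 in the untreated lists and 357 (4.02%) and 126 (2.45%) in the Dex lists. The shortest site was 251 bp in all 4 lists. Sites of exactly that width made up 9.47% and 6.98% of the untreated lists, against 1.36% and 1.79% of the Dex lists. Width rose with density inside each list: in Dex replicate 1 the median width went from 414 bp in the least dense to 802 bp in the densest of 5 equal parts, and in untreated replicate 1 from 280 to 599 bp. Across sites, the Spearman correlation of width with the highest tag density was 0.794 and 0.724 in the untreated lists and 0.847 in both Dex lists. Width and density come from the same tags of the same library, so this is a description of the lists.

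The highest tag density of a site, the authors' measure of how high reads pile up there, was higher in the Dex lists at the low end, the median and the high end. Its scaling is not stated, so levels set across lists assume that the authors made them comparable. List medians were 13.4 and 8.93 without hormone and 17.4 and 16.2 with Dex, a ratio of group means of 1.50. The median was 1.25 times the untreated one without untreated replicate 2 and 1.88 times without untreated replicate 1. The 5th percentile was 2.33 and 2.76 in the untreated lists and 8.13 and 7.89 in the Dex lists. The 95th percentile was 24.9 and 17.6 in the untreated lists and 82.2 and 64.7 in the Dex lists. The densest site reached 45.6 and 25.8 without hormone, and 621 and 360 with Dex. No untreated site exceeded 50, whereas 985 sites (11.1%) and 444 sites (8.64%) of the Dex lists did. Sites below a density of 5 were 9 (9.47%) and 43 (13.7%) in the untreated lists and 40 (0.451%) and 40 (0.779%) in the Dex lists. The average tag density over a site had medians of 5.87 and 3.73 without hormone and 6.89 and 6.40 with Dex, a ratio of 1.39. The average was a median 0.411 and 0.403 of the highest density in untreated sites and 0.395 and 0.394 in Dex sites.

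The z-score that the authors gave each site followed the same order. Medians were 14.6 and 13.9 in the untreated lists and 21.7 and 20.2 in the Dex lists, a ratio of group means of 1.47. The lowest z-scores lay between 11.0 and 11.3 in all 4 lists, so the lists ended at nearly the same score. The highest were 39.1 and 58.3 without hormone and 791 and 472 with Dex. When a highest density of 10 and a z-score of 15 were set as lower limits, the lists held 42, 92, 6415 and 3580 sites, in the order untreated replicates 1 and 2 and Dex replicates 1 and 2. The ratio of means was then 74.6.

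**Figure D2:**
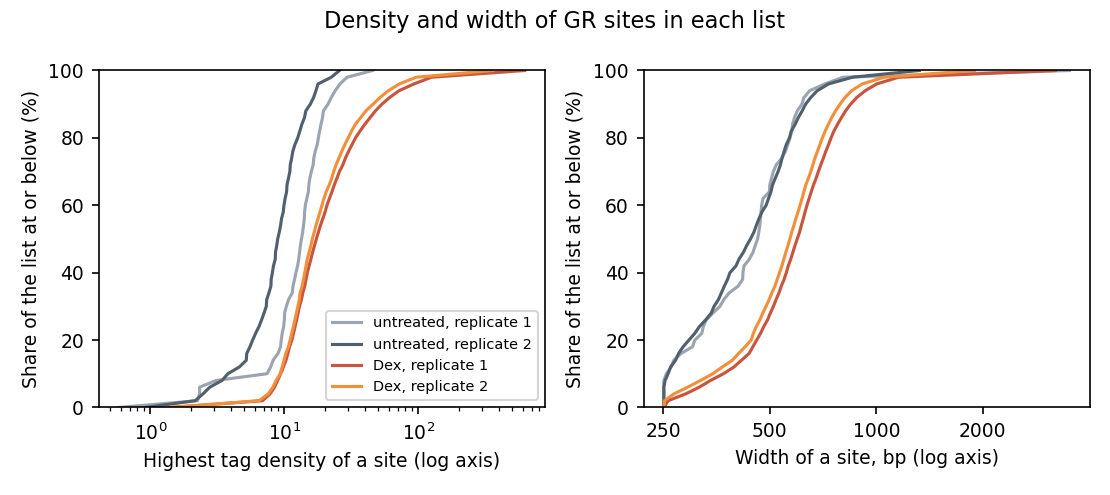
Cumulative share of sites, in percent of each list, by highest tag density (left, log axis) and by width in bp (right, log axis). Each line is a list. The Dex lines run to the right of the untreated lines, with medians of 17.4 and 16.2 against 13.4 and 8.93 in density, and of 598 and 570 bp against 462 and 441 bp in width.

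The question of how far replicate lists call the same places was addressed by overlap of at least 1 bp. Of the 5136 sites of Dex replicate 2, 4993 (97.2%, exact binomial 95% interval 96.7 to 97.6) were found in replicate 1. Of the 8873 sites of replicate 1, 4965 (56.0%, 54.9 to 57.0) were found in replicate 2. The shorter list was thus nearly contained in the longer one. In the untreated pair, 67 of 95 sites of replicate 1 (70.5%, 60.3 to 79.4) were in replicate 2, and 65 of 315 sites of replicate 2 (20.6%, 16.3 to 25.5) were in replicate 1. These intervals, like all those below, cover counting error only.

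Dex sites found in 1 list were mostly the less dense ones. When Dex replicate 1 was divided by density into 5 equal parts, 15.7% of the sites of the least dense part were found in replicate 2, and the share was 27.8%, 50.9%, 86.0% and 99.5% in the parts above. In the opposite direction the shares ran from 90.4% to 100%. All 500 densest sites of each Dex list were in the other one. Over the 4961 regions called in both Dex lists, the Spearman correlation of highest density between replicates was 0.887. The density in replicate 1 was a median 1.57 times that in replicate 2 (5th to 95th percentile, 0.977 to 2.40) and higher in 94.1% of regions. The medians of the full lists lie closer together than that, since the additional sites of replicate 1 were of low density: regions called in replicate 1 and in no other list had a median of 12.5, against 26.9 in regions called in both Dex lists and neither untreated list. Over the 65 regions of both untreated lists the correlation was 0.610 and the median ratio of replicate 1 to replicate 2 was 1.12.

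The 4 lists merged into 9145 regions. Of these, 4829 regions were in both Dex lists and in neither untreated list, which is 52.8% of all regions. A further 3841 were in Dex replicate 1 only and 133 in Dex replicate 2 only. Any untreated list called 342 regions, of which 208 were also called with Dex and 134 (1.47% of all regions) were not. Only 47 regions were in all 4 lists. The count of regions seen with Dex and not without it rose to 8674 without Dex replicate 2, since presence in a single Dex list then sufficed.

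Most untreated sites were at places that GR also occupied with Dex. At least 1 Dex list overlapped 76 of the 95 sites of untreated replicate 1 (80.0%, 70.5 to 87.5) and 195 of the 315 of replicate 2 (61.9%, 56.3 to 67.3). Without Dex replicate 1, the longer Dex list, the shares were 62.1% and 42.5%, so that replicate 2 no longer had a majority. Seen from the other side, an untreated list overlapped 199 of 8873 sites of Dex replicate 1 (2.24%, 1.95 to 2.57) and 143 of 5136 of Dex replicate 2 (2.78%, 2.35 to 3.27). Without untreated replicate 2 these shares were 0.800% and 1.15%. Untreated sites that had a Dex counterpart were denser and wider than those without one. In untreated replicate 1 their median density was 14.1 against 7.80 and their median width 471 against 304 bp. In replicate 2 the values were 10.1 against 7.14, and 504 against 364 bp.

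The share of Dex sites with a call in either untreated list did not rise or fall steadily with their density. From the least to the most dense of the 5 parts of Dex replicate 1, 1.69%, 2.46%, 2.10%, 2.59% and 2.37% of sites overlapped an untreated site. In Dex replicate 2 the shares were 3.40%, 2.51%, 2.75%, 3.11% and 2.14%. Against untreated replicate 1 alone, the share rose at every part in Dex replicate 1, from 0.451% to 1.30%. In Dex replicate 2 that share was 1.36% in the least dense and 1.17% in the densest part. None of the 50 densest sites of either Dex list had an untreated call, and 1 of the 100 densest did in each. Among the 500 densest the shares were 2.2% and 1.8%, against 2.24% and 2.78% of all sites, so such small counts show no clear difference. The median rank of sites with an untreated call was 3.93 percentile points above that of the others in Dex replicate 1 and 1.44 points below it in replicate 2. The 2 Dex lists therefore differed in sign, and their mean, 1.25 points, became 11.2 points without untreated replicate 2.

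**Figure D3:**
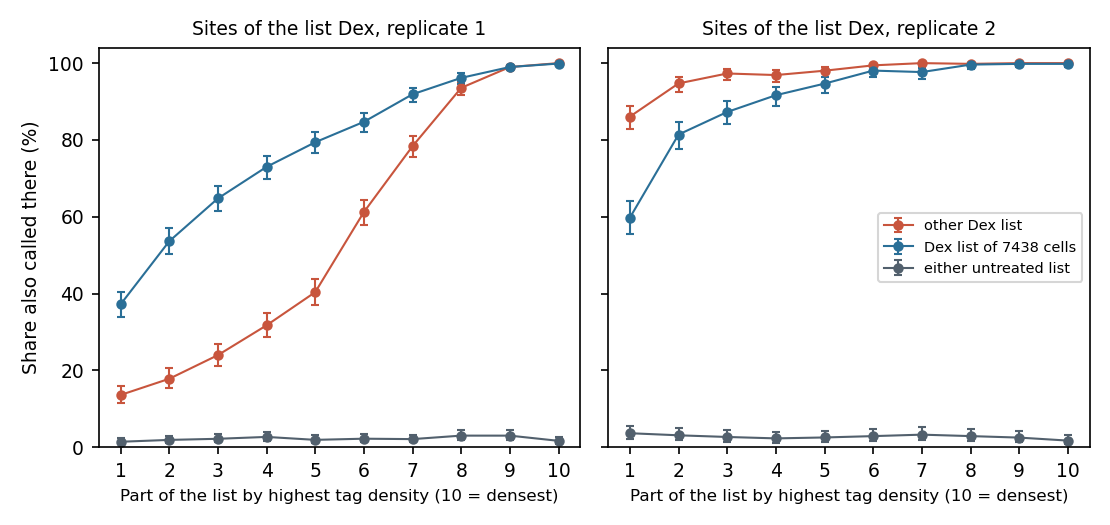
Share of Dex sites (percent, vertical axis) also called in the other Dex list, in the Dex list of 7438 cells, and in either untreated list, by highest tag density within the list, in 10 equal parts of which part 10 is the densest. Bars are exact binomial 95% intervals. In Dex replicate 1 (left) the share in the other Dex list goes from 13.6% to 100%, and the share in an untreated list from 1.45% to 1.69%. In Dex replicate 2 (right) these shares go from 86.1% to 100% and from 3.68% to 1.75%.

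The strongest sites seen with Dex only were high in both replicates. Positions are given in mouse build mm9 as the lists print them, and no gene annotation in that build was used here, so no gene is named. The site of highest rank lay at chr17:28649346-28651160, with a highest density of 621 in Dex replicate 1 and 360 in replicate 2. The others were chr3:122008916-122010373 (590 and 283), chr12:101032700-101034047 (489 and 278), chr2:152610939-152612286 (483 and 263) and chr17:56247779-56248828 (446 and 242). Each was above every untreated site of the genome, where the maximum was 45.6. All 5 were also called in the Dex list of 7438 cells, where their ranks lay between the 99.5th and 100.0th percentile, and in both lists of GR and both lists of ER from 7438 Afos cells given both hormones. None was in a GR list of cells given estradiol alone, and chr3:122008916-122010373 was also in 1 ER list of Dex-treated cells.

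In the 47 regions called in all 4 lists, the mean density with Dex was usually, but not always, the higher, and more so in replicate 1. Median densities were 14.1 and 14.4 in the untreated lists and 29.6 and 17.5 in the Dex lists. The ratio of the mean with Dex to the mean without it had a median of 1.43 and ranged from 0.576 to 15.1. It was above 1 in 39 regions and above 2 in 15. Between same-numbered lists, the ratio in replicate 1 had a median of 1.66 and was above 1 in 43 regions. In replicate 2 the median was 1.23, and only 27 regions were above 1. In 20 regions (42.6%) both Dex values exceeded both untreated values, and in 2 regions (4.26%) both were lower. The replicate values overlapped in the rest. These regions had to pass the calling threshold in every list, so the ratio says nothing of regions called with Dex only.

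Single regions show both kinds. At chr3:81171542-81172537 the highest density was 12.5 and 5.54 without hormone and 169 and 103 with Dex. At chr2:125747580-125749256 it was 14.2 and 13.4 without hormone and 147 and 73.0 with Dex. Both were thus among the stronger Dex sites, with percentile ranks of 99.0 and 98.3 for the first and 98.7 and 96.1 for the second. Without hormone their percentile ranks were 41.6 and 18.3 for the first and 58.4 and 83.7 for the second. At chr15:62159620-62160616 the densities were 19.3 and 16.6 without hormone and 86.5 and 45.6 with Dex. At chr8:123449727-123450729 they were 24.6 and 16.6 against 61.9 and 45.6, and at chr1:162450659-162451511 they were 13.7 and 10.4 against 51.7 and 40.1. The groups did not overlap in any of these 5. They were named for the highest Dex rank, a choice that favours Dex values above untreated ones. Over all 47 regions, 20 separated in this direction.

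The region of highest untreated rank went the other way. This region and those below were named for high untreated or low Dex rank, which favours untreated values above Dex ones. At chr12:33866541-33867324 the highest density was 29.1 and 25.8 in untreated cells and 20.1 and 11.5 with Dex, so both Dex values were the lower. It was also in both GR lists of cells given estradiol, in both lists with both hormones, and in both ER lists with estradiol, where no GR ligand was given. The next in untreated rank, chr12:51068868-51069622, had 23.6 and 23.7 without hormone and 34.5 and 19.1 with Dex, so its groups overlapped. At chr4:59327683-59329141 the values were 21.3 and 22.4 against 48.9 and 33.0. At chr17:75655114-75655845 they were 19.6 and 17.2 against 30.8 and 15.3, again overlapping. Of the 3 regions of lowest Dex rank, chr18:70550870-70551459 had 9.50 and 9.84 without hormone and 8.28 and 9.16 with Dex, both Dex values being lower. At chr15:64195444-64196119 the densities were 9.50 and 16.9 against 11.7 and 8.68. At chrX:123302810-123303980 they were 2.28 and 8.85 against 8.09 and 11.0, and this region was called in all 8 ER lists of 7438 Afos cells and not in the Dex list of 7438 cells.

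**Figure D4:**
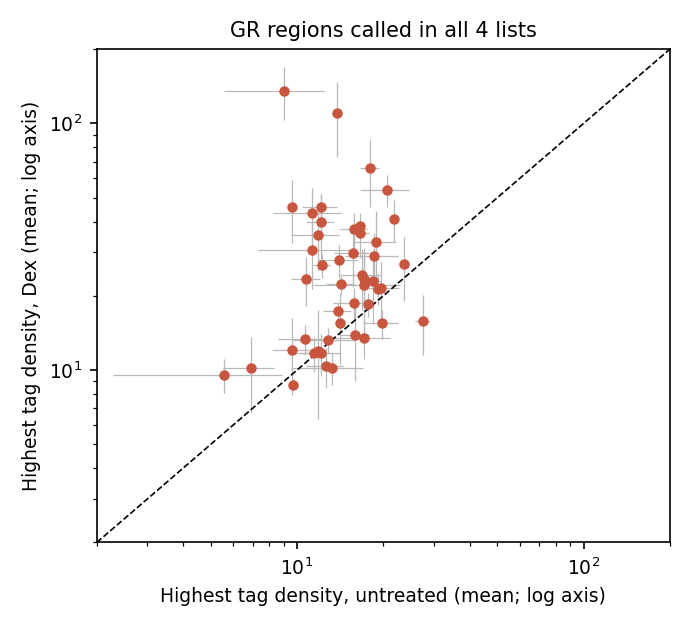
Highest tag density of the 47 regions called in all 4 lists, mean of the untreated lists (horizontal, log axis) against mean of the Dex lists (vertical, log axis). Grey lines span the 2 replicates and the dashed line marks equal values. 39 regions lie above the line, with ratios of up to 15.1, and the lowest ratio is 0.576.

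Of the 134 regions called without hormone and not with it, 115 were in untreated replicate 2 only, 14 in replicate 1 only and 5 in both. Their sites were weak and narrow, with median densities of 7.80 and 7.14 and median widths of 304 and 364 bp in replicates 1 and 2. The 5 in both lists were chr2:125127775-125128251 (11.2 and 9.84), chr2:110026619-110027164 (9.13 and 10.5), chr14:34060772-34061241 (9.77 and 8.27), chr9:116278108-116278651 (7.80 and 8.93) and chr2:112858335-112858748 (7.27 and 5.25). None reached the median of a Dex list, and 4 of the 5 were called in the Dex list of 7438 cells. A Dex call missing at such densities is not shown to be absent binding, since sequencing depth is unknown.

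ER lists of the same cells gave a second reading of the untreated sites, because in untreated and Dex-treated cells ER was given no ligand and a different receptor was precipitated. The 4 ER lists of untreated and Dex-treated cells held 84 and 102 sites in all. At least 1 of them overlapped 15 of the 95 sites of untreated replicate 1 (15.8%, 9.12 to 24.7) and 28 of the 315 of replicate 2 (8.89%, 5.99 to 12.6). For Dex sites the shares were 0.169% (0.0946 to 0.279) in replicate 1 and 0.467% (0.300 to 0.694) in replicate 2. By class, 6 of the 4829 regions seen with Dex only (0.124%, 0.0456 to 0.270) overlapped such an ER site, as did 4 of the 47 in all 4 lists (8.51%, 2.37 to 20.4) and 21 of the 134 seen without hormone only (15.7%, 9.97 to 23.0). With these sites removed from all 4 lists, the ratio of the numbers of sites was 38.1.

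The widest site of each list is a single case, and such overlap with ER sites was less common in the lists as a whole. In untreated replicate 1 it was chr17:39979878-39983393, 3515 bp wide with a highest density of 45.6. It was found in Dex replicate 1 and in lists of every ER treatment, and not in the Dex list of 7438 cells. In untreated replicate 2 it was chr15:74915814-74917137 (1323 bp, density 19.9), called in all 4 GR lists and in both lists of every ER treatment. The widest Dex sites, chr18:9491357-9494564 in replicate 1 (3207 bp, density 86.5) and chr9:120051102-120052995 in replicate 2 (1893 bp, density 96.2), were in neither untreated list. Both were found in both Dex lists, in the Dex list of 7438 cells and in both GR and both ER lists with both hormones, and in no ER list of other treatments. Over all sites, 16.5% of Dex replicate 1 and 21.1% of replicate 2 were in an ER list with both hormones. In ER lists of untreated or Dex-treated cells were 15.8% and 8.89% of untreated sites.

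The parental 7438 cells, without Afos, provided a readout that the choice of samples did not use. Their Dex list has 12084 sites, all 150 bp wide, so the place and highest density of a site were compared but not its width. It overlapped 6915 of 8873 sites of Dex replicate 1 (77.9%, 77.1 to 78.8) and 4671 of 5136 of replicate 2 (90.9%, 90.1 to 91.7). The share rose with density, from 45.4% to 99.4% over the 5 density parts of replicate 1 and from 70.5% to 99.8% over those of replicate 2. Among the 500 densest sites of each Dex list, 499 were in the 7438 list. The Spearman correlation of highest density with that list was 0.707 over 6913 regions and 0.746 over 4647. Untreated 7438 Afos sites overlapped the same list at 71 of 95 (74.7%) and 207 of 315 (65.7%). By class, the shares were 92.0% (91.2 to 92.8) of regions in both Dex lists only, 59.4% (57.8 to 60.9) of regions in a single Dex list only, 91.5% (79.6 to 97.6) of those in all 4 lists and 28.4% (20.9 to 36.8) of those seen without hormone only.

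Most Dex sites were also called in 7438 Afos cells given estradiol together with Dex. In Dex replicate 1, 93.5% (93.0 to 94.0) of sites were in at least 1 of the 2 GR lists with both hormones. In replicate 2 the share was 98.8% (98.5 to 99.1). Against single lists the shares were 88.1% and 81.4% for replicate 1, and 96.6% and 96.1% for replicate 2. In the least dense of the 5 parts of replicate 1 the share in at least 1 list was 80.2%, and in the densest 99.9%. The shares below also count a site found in at least 1 list of the treatment. GR lists of cells given estradiol alone overlapped 0.766% (0.596 to 0.971) and 1.11% (0.842 to 1.44) of the Dex sites, and 14.7% and 6.35% of the untreated sites of replicates 1 and 2. ER lists of cells given both hormones overlapped 8.62% of the least dense and 36.0% of the densest part of Dex replicate 1, and 10.5% and 42.7% in replicate 2. GR sites of greater density with Dex were thus more often places where ER was called once both ligands were present. The rise was not particular to both ligands. ER lists of cells given estradiol alone overlapped 3.49% of the least dense and 9.24% of the densest part of Dex replicate 1. In replicate 2 these shares were 4.18% and 10.5%.

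GR sites with Dex were spread over all autosomes and the X chromosome. They had a median of 3.71 sites per Mb over the chromosomes in replicate 1 and 2.10 in replicate 2. The X chromosome was lowest in both lists, with 1.24 and 0.668 sites per Mb, and chromosome 14 was lowest among the autosomes, with 2.29 and 1.27. The highest were chromosome 19 in replicate 1 (4.75) and chromosome 11 in replicate 2 (2.67). Chromosome 2 held the largest share of sites, 7.70% and 7.77%. The shares of the 20 chromosomes in the Dex lists had a Spearman correlation of 0.983 and differed by at most 0.547 percentage points, on chromosome 10. The correlation was 0.524 between the untreated lists, which held far fewer sites, and 0.407 to 0.516 between an untreated and a Dex list. Untreated replicate 1 had no site on chromosome 13, and untreated replicate 2 had the 1 site on chromosome Y.

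**Figure D5:**
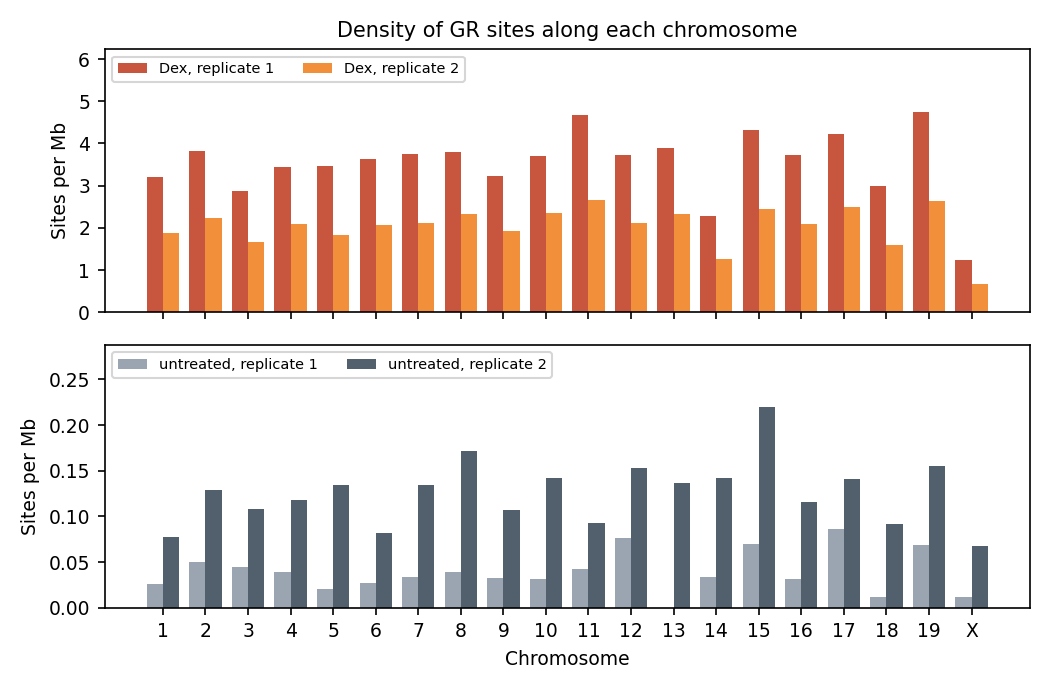
GR sites per Mb of each chromosome in the Dex lists (top) and the untreated lists (bottom). The vertical scales of the panels differ. The Dex lists rank the 20 chromosomes alike (Spearman correlation 0.943), with the X chromosome lowest at 1.24 and 0.668 sites per Mb, and the untreated bars stay at or below 0.219.

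Neighbouring GR sites were closer together in the longer lists. The median gap between neighbours was 10.3 and 3.41 Mb in the untreated lists and 0.0812 and 0.143 Mb in the Dex lists. Sites with a neighbour within 10 kb made up 10.5% and 15.9% of the untreated lists and 31.0% and 23.97% of the Dex lists, a difference of group means of 14.3 percentage points. Spacing depends on the number of sites, so it was also measured on equal numbers. Among the 95 densest sites of each list, 10.5% of the untreated sites in both lists and 11.6% of the Dex sites in both lists had a neighbour within 10 kb. The ratio of median gaps, Dex to untreated, was 0.0164 on all sites and 1.20 on equal numbers. On equal numbers the groups overlapped, with gaps of 10.3 and 6.40 Mb in the untreated lists and 8.72 and 11.3 Mb in the Dex lists. On all sites the ratio was 0.0329 without untreated replicate 1 and 0.0109 without untreated replicate 2. Among the 315 densest sites the share was 15.9% in untreated replicate 2 and 10.5% and 9.21% in the Dex lists. At 5136 sites each, Dex replicate 1 had 28.3% and replicate 2 had 23.97%.

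Inside a list, sites with a near neighbour ranked higher than isolated ones. The median density percentile was 60.2 against 45.4 in Dex replicate 1 and 61.2 against 46.8 in replicate 2. In the untreated lists it was 63.2 against 48.9 and 58.3 against 49.2. Only 10 and 50 untreated sites had a near neighbour, against 2749 and 1231 Dex sites. Of the 4829 regions in both Dex lists only, 3746 stood alone at a chaining distance of 10 kb. The other 1083 (22.4%) formed 486 clusters, of which 401 were pairs, 69 had 3 members, 12 had 4, 3 had 6 and 1 had 8.

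The cluster with the most members held 8 regions in 32.7 kb at chrX:137040101-137072776, on the chromosome with the lowest density of GR sites. Its members had highest densities of 18.6 to 80.6 in Dex replicate 1 and 15.3 to 63.5 in replicate 2. All 8 were in the Dex list of 7438 cells, and 3 were in an ER list with both hormones. Over all 4829 regions in both Dex lists only, these shares were 92.0% and 21.6%. The 3 clusters of 6 regions lay at chr17:28649346-28659395, which begins with the strongest Dex site, at chr7:117842137-117864815 and at chr18:9485657-9509918. Every region of these 3 was also in the 7438 list. All 6 regions of the chromosome 18 cluster were in an ER list with both hormones, against 1 in the chromosome 17 cluster and none in the chromosome 7 cluster. The untreated lists had 5 and 21 clusters, with 10 and 50 sites. Of these sites, 9 and 29 were also called with Dex, and 4 and 14 overlapped an ER site of untreated or Dex-treated cells. Over all sites of untreated replicates 1 and 2, the shares were 80.0% and 61.9% with Dex, and 15.8% and 8.89% in those ER lists. The largest untreated cluster, 6 sites at chrX:123299787-123308019 in replicate 2, had 4 sites called with Dex and 5 in those ER lists, and no density above 8.85.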

How the data were processed

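ChIP-seq lists of GR sites from 7438 Afos cells (2 untreated, 2 Dex) were analysed, with ER and other GR lists of the same series for comparison. The members and lists of this comparison were chosen with earlier results of these data known. Per the submitters' processing notes, the build was mm9 and CASAVA 1.8 was among the tools. Not given in the sources used here are the aligner, peak caller, control and threshold. Per the file headers, each deposited site carries a highest and an average tag density, a signal whose scaling the authors do not state. It also carries a z-score, the score given by the authors, and a deposited p-value that entered no result. Each list belongs to 1 sample, and depth is unknown because lists hold no read totals.

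Sites sharing 1 bp or more counted as the same place and were merged over the 4 lists. The overlap, merging and gap steps were checked on simulated lists. Shares carry exact (Clopper-Pearson) 95% intervals, which were not part of that check. Groups were compared by two-sided exact permutation over lists. Sites per Mb use the span from the first to the last site of a chromosome over the lists. Of the 7438 lists only the GR lists with Dex and with estradiol were used, because for the untreated and both-hormone lists names and labels disagree. Named regions are those of highest or lowest mean density rank in each class, the widest site of each list and the cluster with the most regions. Alternatives were 50% reciprocal overlap, the denser part of each list (at or above its median), equal numbers, score limits, other distances, leaving out lists and same-numbered lists. Nearest genes of the sites and known GR target genes were left out, because no annotation in mm9 was used. Python 3.11.15, NumPy 2.4.6, SciPy 1.17.1, pandas 2.3.3 and matplotlib 3.10.9 were used.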

Additional observations from a re-analysis of the deposited data

How the results depend on the processing

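Width, density and z-score differences kept their direction under every alternative run. Equal numbers were no check of this direction. That setting took the 95 densest sites of each longer list and all sites of untreated replicate 1. The ratio of site numbers was 22.2 to 73.7 when 1 list was left out. At 50% reciprocal overlap, 53.0% of Dex replicate 1 was found in replicate 2, 91.6% in the opposite direction, and 60.0% of untreated replicate 1 in replicate 2. Untreated sites found with Dex were then 66.3% and 53.0% in replicates 1 and 2, and Dex sites found without hormone 1.74% and 2.26%. Overlap with 7438 sites fell to 1.49% and 2.90% by construction, since those are 150 bp wide. Overlap of the Dex lists with both hormones was 91.3% and 94.3%, and of Dex replicate 1 with estradiol 0.575%. Among sites at or above their list's median density, 98.1% of Dex replicate 2 was found in replicate 1, 45.6% of untreated replicate 2 with Dex, and 1.71% and 1.99% of Dex sites without hormone. Regions in both Dex lists only then numbered 2459. In 7438 the shares were 94.3% and 99.0%, with both hormones 99.5% and 99.9%, for replicate 1 with estradiol 1.04%, and for replicate 2 in ER lists 0.234%.

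The median gap ratio went to 1.20 at equal numbers, where the groups overlapped. The difference of the chromosome 2 share, Dex minus untreated, was -0.655 percentage points and reversed to 0.567 in the denser sites, to 3.68 at equal numbers, and ranged from -1.74 to 0.432 over leaving out lists (0.432 without untreated replicate 1). Leaving out untreated replicate 1 or 2 gave 4837 or 4906 regions in both Dex lists only. Leaving out Dex replicate 1 or 2 gave 4993 or 8674 regions in the remaining Dex list and no untreated list. Over leaving out 1 list, 62.1% to 76.8% and 42.5% to 59.0% of untreated sites were found with Dex. Dex sites found without hormone were 0.800% to 2.08% and 1.15% to 2.63%, and the rank difference was -1.44 to 11.2 points.

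The labels give the groups the same replicate numbers but do not say that a number marks a shared batch. Over the 47 regions in all 4 lists, deviations of same-numbered lists correlated at 0.396. With the numbers as a replicate block the ratio of site numbers was 39.0 (16.3 and 93.4, exact p = 0.5), 42.5% of untreated replicate 2 was found with Dex and 0.800% of Dex replicate 1 without hormone. The removal of sites in ER lists, and trimming the longer Dex list to the length of the shorter, were chosen after seeing the data. The causes of these shifts were not tested. Unknown depth limits all statements on absence.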
